A study of Mus musculus with 19 samples.

Results

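The genes described here are 5 targets of the transcription factor p53 that act on the cell cycle: Cdkn1a, Ccng1, Btg2, Psrc1 and Gtse1. They were chosen by name, as the array probes whose transcript accession belongs to one of these symbols. The array holds 33269 genes, where a transcript with no symbol is counted as a gene. The 5 members are represented by 10 probes: 1 for Cdkn1a, printed as 10 spots on every array, 2 for Ccng1, 3 each for Btg2 and Psrc1, and 1 for Gtse1. Of these, 9 probes were bright enough in lung to be tested, which left 4 of the 5 genes in the test across 19315 genes. The Gtse1 probe was not well above background in lung and is described separately.

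The RNA came from a piece of lung of male MutaMouse animals (transgenic strain 40.6) aged 25 weeks, which received vehicle (control) or benzo(a)pyrene (BaP) at 25, 50 or 75 mg/kg/day by gavage. BaP is a polycyclic aromatic hydrocarbon whose metabolites bind DNA. Dosing was daily for 28 days and tissue was taken 3 days later, so every value describes lung after dosing had stopped. There were 5 control mice, 5 mice at 25, 4 mice at 50 and 5 mice at 75 mg/kg/day, and all groups, controls included, carry the transgene. An array was used for every mouse, with lung RNA in the red channel (Cy5) and a purchased reference RNA from mouse cell lines in the green channel (Cy3) on every array. Values are log2 ratios of lung over reference, so a value of 0 is equal signal in both. No dye swap was made, and any dye effect of a probe is shared by all groups. Of 43379 spots on an array, 19777 to 27279 were clearly brighter than background in lung, and the number of arrays limits the precision.

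When DNA is damaged, p53 is stabilised and switches on genes that halt the cell cycle, repair DNA or lead to cell death. The halt at the G1 boundary runs mainly through Cdkn1a, which encodes p21, an inhibitor of cyclin-dependent kinases. The other members act around it: Ccng1 encodes cyclin G1, which recruits a phosphatase to Mdm2 and so feeds back on p53, and Btg2 encodes an antiproliferative protein that promotes removal of poly(A) tails from mRNA. Psrc1 encodes a microtubule-binding protein of the mitotic spindle, and Gtse1 encodes a microtubule-binding protein of S and G2 phase that, in human cells, restrains p53.

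The members were called at different doses, though differences between members were not tested. Cdkn1a was higher at all 3 doses, Ccng1 at 50 and 75 mg/kg/day, and Psrc1 at 75 mg/kg/day, while Btg2 passed the test at no dose. Counted by dose, 1, 2 and 3 of the 4 tested members were called higher at 25, 50 and 75 mg/kg/day, where called means a rise with an adjusted p under 0.05 by limma with Benjamini-Hochberg adjustment over all genes. The share of all genes called higher was 0.0414% at 25, 0.746% at 50 and 2.65% at 75 mg/kg/day. The median difference from control over the 4 members was 0.53, 1.27 and 2.04 log2 units at the rising doses, beside 0.008, -0.001 and -0.008 over all genes tested. In whole lung, a change in the number of cells that carry a transcript and a change in the amount per cell cannot be told apart.

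Promoter sequence is given first, because the members are grouped by a shared regulator. RefSeq promoter windows (GRCm38.p6, 250 bases before to 50 after a start site) were matched for all 5 genes, as 8 windows. Each was searched on both strands for the p53 consensus as a pair of adjacent decamers with at most 1 letter off, a rule chosen after these sequences had been seen. Such a pair was found in 29 of 32841 windows, or 0.0883%, and 3 of these belong to Cdkn1a, Ccng1 and Gtse1. The Cdkn1a site lies at chr17:29090928-29090947 on the plus strand and begins at position -51 of the first of its 2 windows. The second Cdkn1a window held neither such a pair nor a single p53 decamer. The Ccng1 site lies at chr11:40755462-40755481 on the minus strand and begins at position -195. The Gtse1 site lies at chr15:85859945-85859964 on the plus strand and begins at position -1 of the second of its 2 windows. The sequences are shown with the site in capitals, for Cdkn1a and Ccng1 with the bases around it and for Gtse1 as the site alone:
Cdkn1a: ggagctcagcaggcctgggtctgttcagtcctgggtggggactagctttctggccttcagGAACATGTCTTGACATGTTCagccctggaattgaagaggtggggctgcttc
Ccng1: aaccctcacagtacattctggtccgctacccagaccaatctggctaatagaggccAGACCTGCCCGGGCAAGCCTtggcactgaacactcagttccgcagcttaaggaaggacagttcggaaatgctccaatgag
Gtse1: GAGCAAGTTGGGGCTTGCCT

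No such pair was in the windows of Btg2 and Psrc1, which says only that these letters are not in those windows. A looser search, for any p53 decamer alone, had a match in 8.36% of all windows and in none of the Btg2 and Psrc1 windows. The Btg2 window held the letters CCAAT at 2 positions and GGGCGG at 3, and both Psrc1 windows held each of them. Those letters are common: CCAAT was in 37.4% and GGGCGG in 35.7% of all windows, on either strand. A match is a description of the sequence and no measurement of binding.

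Cdkn1a, at chr17:29090979-29100722 (GRCm38.p6), had the largest rise of all genes tested at 25 and at 75 mg/kg/day. In the control mice its log2 ratio was -1.67, -1.30, -1.38, -1.44 and -0.95. At 25 mg/kg/day it was 0.55, -0.09, 0.23, -0.09 and -0.55, at 50 mg/kg/day 1.45, 1.35, 0.86 and 1.35, and at 75 mg/kg/day 2.40, 1.89, 2.51, 1.27 and 1.56. Every treated mouse lay above every control mouse, and every mouse at 50 mg/kg/day lay above every mouse at 25 mg/kg/day, but the groups at 75 and 50 mg/kg/day overlapped. Over all genes, 0.704% had the group at 50 wholly above that at 25 mg/kg/day. For comparison, 0.994%, 2.54% and 3.05% of all genes had groups lying wholly above the controls at 25, 50 and 75 mg/kg/day.

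The group means of Cdkn1a were -1.35 ± 0.26 in controls, 0.01 ± 0.41 at 25, 1.25 ± 0.26 at 50 and 1.93 ± 0.53 at 75 mg/kg/day (SD, n = 5, 5, 4 and 5). Against control, Cdkn1a rose by 1.36 ± 0.23 log2 units (SE) at 25 mg/kg/day, or 2.57-fold with a 95% interval of 1.85 to 3.56 (limma adjusted p = 0.0233). It rose 6.07-fold at 50 mg/kg/day (4.29 to 8.59, limma adjusted p = 6.63e-06). At 75 mg/kg/day it rose 9.69-fold (6.99 to 13.4, limma adjusted p = 3.33e-08). The call at 25 mg/kg/day was close to the threshold and was lost when any one of control mice 1 to 4 or of mice 6 to 9 was left out; over all 19 omissions the difference lay between 1.22 and 1.5002, with a limma adjusted p of up to 0.0901. The call was also lost under 5 other settings given in the closing section, while the calls at 50 and 75 mg/kg/day held in all 36 settings.

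The replicate spots allowed a check of the error between spots for Cdkn1a that no other member had. The spots of an array share a labelling and a hybridisation, so error between arrays is not covered. Over the spots kept on each array, 10 on 16 arrays and 7 to 9 on the other 3, the SD of the log2 ratio had a median of 0.093 and ranged from 0.033 to 0.347. The SD between mice of a group, 0.26 to 0.53, was larger than that median in all 4 groups. On the array of mouse 12 at 50 mg/kg/day the spot SD, 0.347, exceeded the SD between mice of its group, 0.26. The other arrays of its slide, of mice 1, 6 and 20, had spot SDs of 0.203, 0.195 and 0.204, beside at most 0.142 on other slides. A spot SD is of single spots, while the value of a mouse is a mean over its spots, so the SDs are unlike measures.

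Ccng1, at chr11:40748552-40755309, followed Cdkn1a across the mice with smaller differences. Its log2 ratio was -0.46, -0.27, 0.21, 0.11 and 0.53 in controls, and 1.38, 0.84, 1.03, 0.58 and 0.73 at 25 mg/kg/day. It was 2.05, 1.77, 1.48 and 1.99 at 50 mg/kg/day, and 2.74, 2.38, 2.52, 2.15 and 1.84 at 75 mg/kg/day. Every treated mouse lay above every control mouse, though at 25 mg/kg/day the gap was narrow, with the lowest treated mouse at 0.58 and the highest control at 0.53. The groups at 50 and 25 mg/kg/day did not overlap, as for 0.704% of all genes in that direction, and those at 75 and 50 mg/kg/day did.

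Against control, Ccng1 was 1.85-fold at 25 mg/kg/day, which did not pass the test (limma adjusted p = 0.167). It rose 3.48-fold at 50 mg/kg/day (95% interval 2.58 to 4.69, limma adjusted p = 6.95e-05) and 4.93-fold at 75 mg/kg/day (3.72 to 6.53, limma adjusted p = 6.48e-07). The dimmer Ccng1 probe, A_51_P161612, gave 1.54-fold, 2.64-fold and 4.30-fold at the rising doses, with limma adjusted p-values over all probes of 0.114, 1.43e-05 and 1.51e-08. Over all probes, 0.0327%, 0.653% and 2.55% were called higher at those doses. On that probe every mouse at 75 mg/kg/day lay above every mouse at 50 mg/kg/day, which was not so on the brighter probe. This was the case for 1.11% of all genes, and the share over all probes was not computed. At 25 mg/kg/day the call was gained with the slide as a random block (limma adjusted p = 0.048), and at 50 mg/kg/day it was lost with median centring (1.97 log2 units, limma adjusted p = 0.0505).

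Psrc1, at chr3:108383804-108388231, overlapped the controls at 25 mg/kg/day and stood clear of them at 75 mg/kg/day. Its log2 ratio was -2.60, -2.45, -2.44, -2.95 and -3.11 in controls, and -2.28, -2.67, -2.60, -2.44 and -2.68 at 25 mg/kg/day. It was -1.75, -2.00, -2.36 and -1.74 at 50 mg/kg/day, and -0.65, -0.89, -0.35, -1.64 and -1.16 at 75 mg/kg/day. All 5 mice given 25 mg/kg/day lay above the control mean, but 3 of them lay below the highest control. Those at 50 mg/kg/day lay above all controls by a narrow gap, and those at 75 mg/kg/day lay above every other mouse in the study. All of these values are of the brightest Psrc1 probe. On it the groups at 75 and 50 mg/kg/day did not overlap, which was the case in that direction for 1.11% of all genes. Between 75 and 25 mg/kg/day that share was 1.33%.

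Psrc1 was 1.13-fold against control at 25 mg/kg/day (95% interval 0.852 to 1.504, limma adjusted p = 0.883) and 1.68-fold at 50 mg/kg/day (1.24 to 2.27, limma adjusted p = 0.0933). It rose 3.42-fold at 75 mg/kg/day (2.57 to 4.54, limma adjusted p = 1.64e-05), the 11th largest rise among all genes tested. The call at 50 mg/kg/day was gained in 4 of 36 settings, and the log2 difference there lay between 0.39 and 1.72. The probe is dim in control lung, with 27.5 to 81.5 units of red signal over local background, and the log2 difference at 75 mg/kg/day moved between 1.02 and 2.89 with the treatment of background and of probes, while its call held throughout.

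The 3 Psrc1 probes gave different sizes of response. At 75 mg/kg/day probe A_52_P271528 was 1.75-fold against control (limma adjusted p over all probes = 0.00414) and probe A_52_P493112 was 1.39-fold (limma adjusted p = 0.0678), beside 3.42-fold for the brightest probe. All 3 had their highest group mean at 75 mg/kg/day. On both dimmer probes the mice at 50 mg/kg/day overlapped the controls and the mice at 75 mg/kg/day. On probe A_52_P493112 the lowest mouse at 75 mg/kg/day, at -1.257, also lay just below the highest control, at -1.246. The 2 dimmer probes had at most 59 units of red signal over local background in any control, and the reason for the difference between probes was not tested.

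Btg2, at chr1:134074865-134079155, did not pass the test at any dose. Its log2 ratio was 0.18, 0.45, 0.11, -0.03 and 0.12 in controls, and 0.28, 0.28, 0.23, 0.26 and 0.25 at 25 mg/kg/day. It was 0.86, 0.32, 0.25 and 0.26 at 50 mg/kg/day, and 0.36, 0.72, 0.46, 0.29 and 0.58 at 75 mg/kg/day. At each dose the mice overlapped the controls, in which mouse 2 was highest at 0.45. Against control Btg2 was 1.07-fold, 1.20-fold and 1.25-fold at the rising doses, with limma adjusted p-values of 0.89, 0.372 and 0.136. The 95% interval at 75 mg/kg/day ran from 1.06 to 1.47, which leaves out rises of the size seen for the other tested members in this fit. Btg2 passed at 75 mg/kg/day without mouse 12 (limma adjusted p = 0.0455), and when arrays were centred on the median without loess, at 0.93 log2 units (limma adjusted p = 0.0394), a setting that moved the median of all genes to 0.351.

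The other Btg2 probes were no higher: 1.15-fold and 1.16-fold at 75 mg/kg/day, with limma adjusted p-values of 0.445 and 0.613. Mouse 12, the highest at 50 mg/kg/day on the brightest Btg2 probe with 0.86, had 0.34 and 0.60 on the other probes and did not stand out there. Btg2 is also an immediate early gene, induced within minutes by growth factors and handling stress, so 14 such genes were read beside it. Over all 19315 genes, 1506, 2461 and 3334 had an unadjusted limma p under 0.05 at the rising doses. None of the 14 was called by limma at any dose, and 1, 0 and 3 had such an unadjusted p. Atf3, a stress-induced transcription factor, had the largest difference at 75 mg/kg/day, 0.43 log2 units (limma adjusted p = 0.0838). Mouse 17 at 75 mg/kg/day had the highest mean of these genes, 0.57 log2 units above the control mean, beside -0.18 to 0.17 in the 18 other mice. Fos in mouse 17 was at -0.44, against -2.33 to -1.46 in the others, and mouse 17 was the highest of its group on all 3 Btg2 probes. Junb in mouse 17, at -0.38, was below control mouse 3 at 0.41. Mouse 12, the highest of all mice on the brightest Btg2 probe, had a mean of these genes of 0.009. A link between these genes and Btg2 was not tested. Without mouse 17 the Btg2 difference at 75 mg/kg/day was 0.26 log2 units, beside 0.32 with it.

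**Figure D1:**
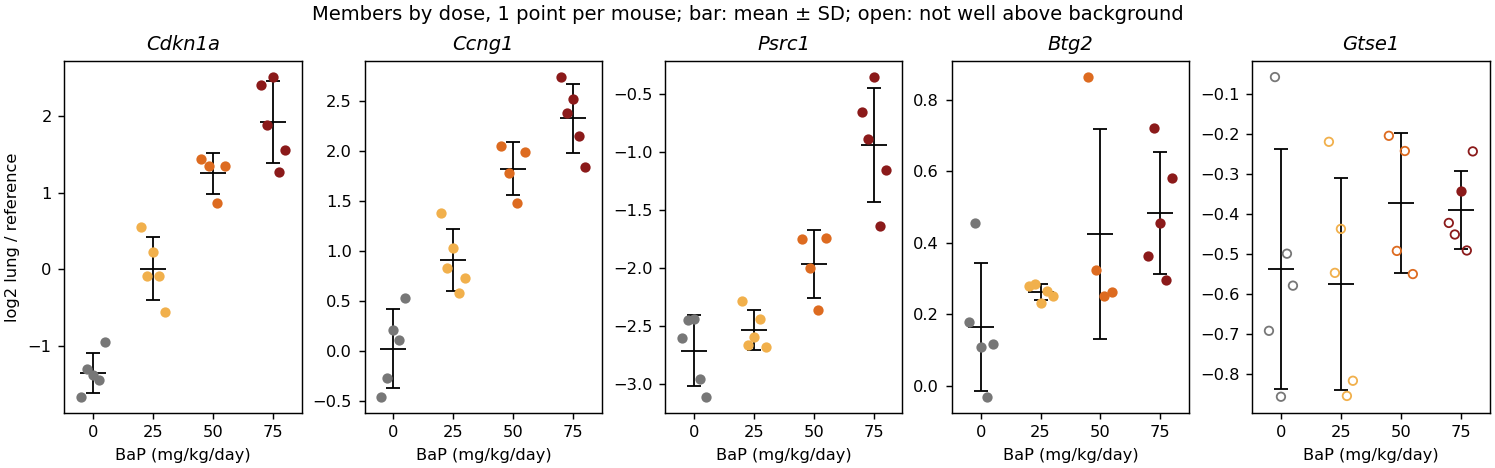
Log2 ratio of lung over reference (y axis, a scale for each gene) against BaP dose in mg/kg/day (x axis), with 1 point per mouse and bars for the mean ± SD; open points are not well above background in lung. On the brightest probe of each gene, Cdkn1a and Ccng1 lie above the controls at every dose and Psrc1 from 50 mg/kg/day. Btg2 and Gtse1 overlap the controls at every dose.

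Gtse1, at chr15:85859691-85876573, was not measurable in these lungs. Its probe was clearly brighter than background in lung on 1 of 19 arrays, that of mouse 18 at 75 mg/kg/day, and in the reference on all 19. The log2 ratio averaged -0.54 ± 0.30 in controls, -0.57 ± 0.27 at 25, -0.37 ± 0.17 at 50 and -0.39 ± 0.10 at 75 mg/kg/day (SD, n = 5, 5, 4 and 5). The groups overlapped. Exact permutation tests, two-sided, gave p = 0.833, 0.365 and 0.333 at the rising doses, where the smallest p the design allows is 0.0079. Control mouse 2 was the highest of all mice at -0.06, and without it the difference at 75 mg/kg/day was 0.27 (exact permutation p = 0.00794), while without the 4 arrays marked by the scanner's quality report it was -0.0483. At this brightness a change of Gtse1 in lung was not detectable.

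**Figure D2:**
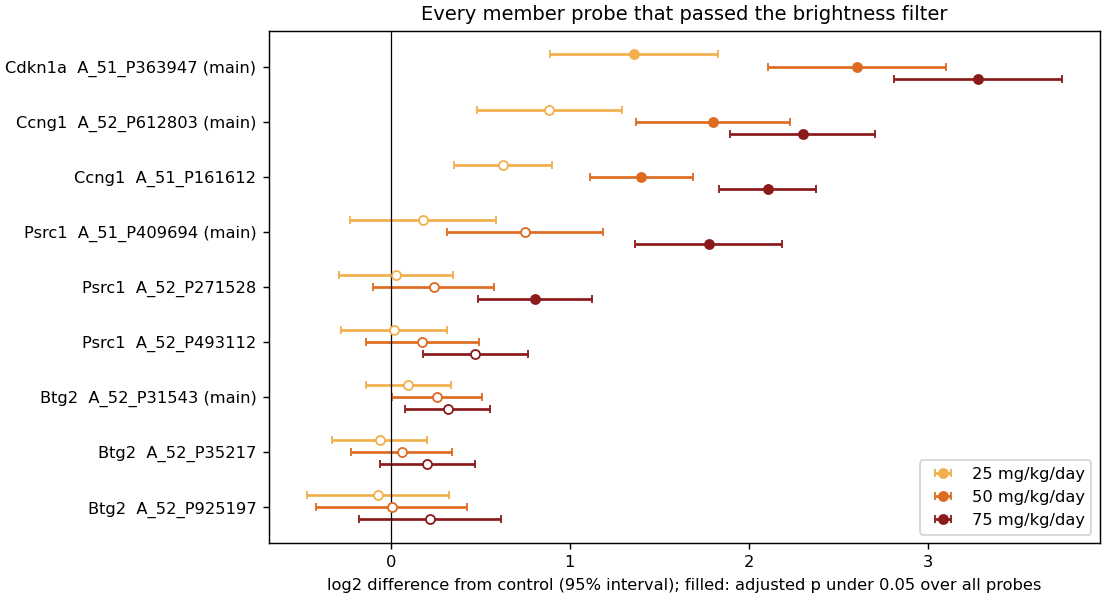
Log2 difference from control (x axis) with its 95% interval for each of the 9 member probes that passed the brightness filter, at 25, 50 and 75 mg/kg/day; filled points have an adjusted p under 0.05 over all probes. Both Ccng1 probes move alike, the 3 Psrc1 probes differ in size at 75 mg/kg/day (1.77, 0.81 and 0.47), and no Btg2 probe is filled.

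The reference channel served as a check, since the same RNA was on every array. Across the 5 members and 3 doses, its differences from control lay between -0.13 and 0.11 log2 units. The lowest exact permutation p, two-sided, was 0.0238 for Ccng1 at 50 mg/kg/day with a difference of -0.13, and its adjusted p was 0.357. In the lung channel alone, Cdkn1a, Ccng1 and Psrc1 kept their calls at 75 mg/kg/day.

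Slides gave a second check. The 19 arrays lay on 6 slides, each with more than 1 group, and differences were taken within every slide that held a dose and a control. Cdkn1a and Ccng1 were higher than the control on 4 of 4 slides at 25, 3 of 3 at 50 and 4 of 4 at 75 mg/kg/day. Psrc1 was higher on 2 of 4, 3 of 3 and 4 of 4 slides at the same doses. Within-slide differences at 75 mg/kg/day ranged from 2.58 to 3.96 for Cdkn1a, from 2.17 to 2.42 for Ccng1 and from 0.81 to 2.60 for Psrc1. Btg2 was higher on 3 of 4, 2 of 3 and 3 of 4 slides.

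The doses were also compared with each other. Between 75 and 25 mg/kg/day, Cdkn1a differed 3.78-fold (limma adjusted p = 0.000321), Ccng1 2.67-fold (limma adjusted p = 0.000709) and Psrc1 3.02-fold (limma adjusted p = 0.000321), where 0.383% of all genes were called higher. Btg2 differed 1.17-fold in that comparison and was not called (limma adjusted p = 0.78). The Ccng1 call was lost with median centring (limma adjusted p = 0.061). Between neighbouring doses no member was called. Cdkn1a was 2.37-fold between 50 and 25 mg/kg/day (limma adjusted p = 0.199) and 1.60-fold between 75 and 50 mg/kg/day (limma adjusted p = 0.968). Psrc1 was 1.49-fold between 50 and 25 mg/kg/day (limma adjusted p = 1) and 2.03-fold between 75 and 50 mg/kg/day (limma adjusted p = 0.227), where it passed in 1 of 36 settings (limma adjusted p = 0.0354). Between 50 and 25 mg/kg/day 0.0104% of all genes were called higher. Between 75 and 50 mg/kg/day limma called 0 of 19315 genes, and 946 had an unadjusted p under 0.05.

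The shape of the dose response was tested as the step between 75 and 50 minus the step between 50 and 25 mg/kg/day. For Cdkn1a this was -0.57 ± 0.42, for Ccng1 -0.41 ± 0.36 and for Psrc1 0.45 ± 0.37 log2 units (SE), and none was called (limma adjusted p = 0.999 each). These values are of the brightest probes. The dimmer Ccng1 probe was at -0.07 ± 0.24. The dimmer Psrc1 probes A_52_P271528 and A_52_P493112 were at 0.36 ± 0.28 and 0.14 ± 0.26, and none of these was called over all probes. So a flattening for Cdkn1a and Ccng1, or a steepening for Psrc1, was not shown by these mice. As a straight line over all mice, Cdkn1a, Ccng1 and Psrc1 were called higher and Btg2 was not (0.11 ± 0.03 for each 25 mg/kg/day, limma adjusted p = 0.0738), where 2.82% of all genes were called higher. Over treated mice alone, each further 25 mg/kg/day went with a rise of 0.96 ± 0.12 for Cdkn1a, 0.71 ± 0.09 for Ccng1 and 0.80 ± 0.10 for Psrc1, each with a limma adjusted p of 0.000973. The same slope was 0.11 ± 0.05 for Btg2 (limma adjusted p = 0.664).

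Mouse by mouse, the members moved together to different degrees. Over the 19 mice Pearson's r with Cdkn1a was 0.98 for Ccng1, 0.872 for Psrc1 and 0.619 for Btg2, which includes the differences between dose groups. For deviations from the group means, r with Cdkn1a was 0.784 for Ccng1, 0.644 for Psrc1 and 0.135 for Btg2. All of these share an array per mouse, and they are given as descriptions. At 75 mg/kg/day the order of the mice was the same for Cdkn1a and Psrc1, with mouse 18 highest, followed by mice 16, 17, 20 and 19. At 25 mg/kg/day mouse 6 was highest for Cdkn1a, Ccng1 and Psrc1.

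**Figure D3:**
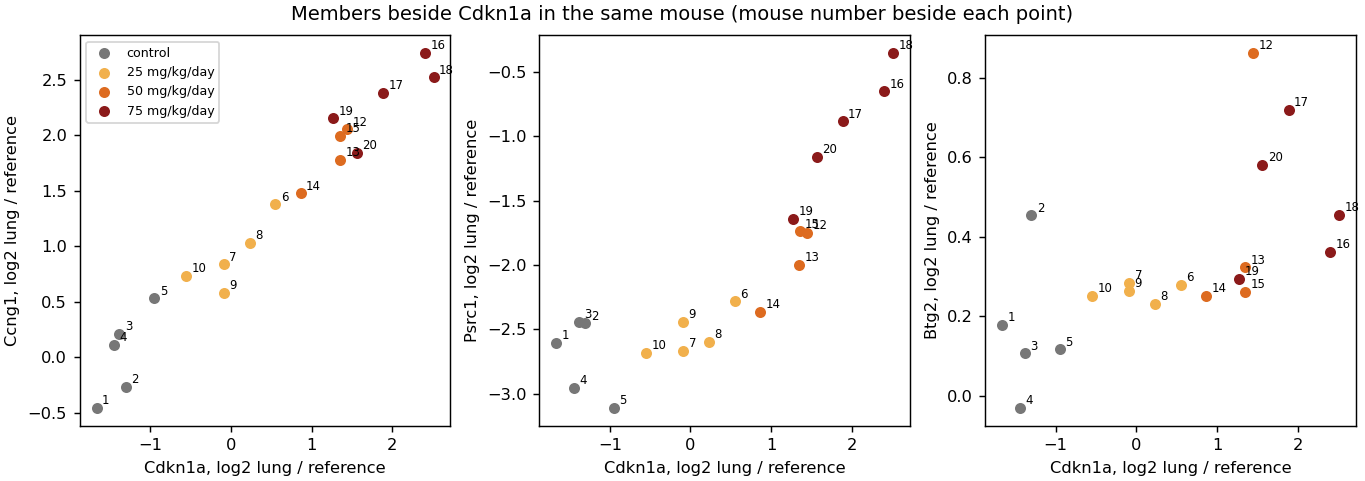
Log2 ratio of lung over reference of Ccng1, Psrc1 and Btg2 (y axes) against that of Cdkn1a (x axis), with 1 numbered point per mouse, coloured by dose. Each gene is read from its brightest probe. Ccng1 follows Cdkn1a across the whole range (r = 0.98), Psrc1 overlaps the controls at 25 mg/kg/day and lies above all other mice at 75 mg/kg/day (r = 0.872), and Btg2 scatters (r = 0.619).

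The tested genes with symbols whose log2 ratio was most like each member's over the 19 mice were taken by Pearson's r, 3 for each. For Cdkn1a they were Gdf15 (0.979), Bax (0.971) and Phlda3 (0.968). Ccng1 was most like Bax (0.961), Mmrn2 (0.959) and Rps27l (0.957). Psrc1 was most like Cpt1c (0.971), Zmat3 (0.959) and Trim16 (0.95). Btg2 had lower values, with Nudt5 (0.79), Zfp689 (0.778) and Pym1 (0.774). These r include the differences between dose groups. For deviations from the group means, in the same order, r was 0.699, 0.635 and 0.632 with Cdkn1a and 0.604, 0.724 and 0.618 with Ccng1. It was 0.837, 0.831 and 0.686 with Psrc1 and 0.728, 0.73 and 0.608 with Btg2, so Btg2 did not stand apart by that measure.

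Other p53 targets gave the setting for the members. Of 30 listed genes, 28 were tested, and 5, 10 and 14 were called higher at 25, 50 and 75 mg/kg/day, with 0, 0 and 1 called lower, beside 0.0414%, 0.746% and 2.65% of all genes called higher. Their median difference was 0.12, 0.23 and 0.39 log2 units. At 75 mg/kg/day Gdf15, a secreted stress cytokine, rose 8.95-fold (limma adjusted p = 1.95e-08), the nearest in size to Cdkn1a. Phlda3, an inhibitor of Akt, rose 4.32-fold and Trp53inp1 3.08-fold. Among the genes for cell death, Bax rose 2.45-fold, Pmaip1 1.75-fold and Bbc3 1.56-fold, and Aen and Ei24 rose 2.95-fold and 2.19-fold. Mdm2, the ubiquitin ligase that limits p53, rose 2.17-fold.

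The remaining p53 targets called higher at 75 mg/kg/day were Zmat3 (2.65-fold), Sesn2 (2.64-fold), Polk (1.80-fold), Plk2 (1.75-fold) and Ercc5 (1.36-fold). Polk and Ercc5 act on damaged DNA, as a translesion polymerase and an excision repair nuclease. Sesn1, a stress-response relative of Sesn2, fell by 0.43 log2 units (limma adjusted p = 0.0192). Perp, a junction protein, had a log2 difference of -0.84 and did not pass (limma adjusted p = 0.211).

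Few relatives of the members were called. Of 6 other inhibitors of cyclin-dependent kinases, 0 were called at 75 mg/kg/day by limma. There 3334 of all 19315 genes had an unadjusted p under 0.05, and 1 of the 6 did. That was Cdkn2b, which encodes p15, with 0.64 ± 0.19 log2 units (limma adjusted p = 0.0569). As a straight line over all 19 mice Cdkn2b was called, with a rise of 0.20 ± 0.06 log2 units for each 25 mg/kg/day (limma adjusted p = 0.0412), and the other 5 were not. Of 4 tested genes of the BTG and TOB family besides Btg2, Btg1 fell by 0.55 log2 units (limma adjusted p = 0.00528), where 1.51% of all genes were called lower, and Btg3 was at 0.44 (limma adjusted p = 0.107). Ccng2, the relative of Ccng1, was at -0.24 ± 0.08 log2 units and did not pass (limma adjusted p = 0.0885).

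Most listed genes of G1, S, G2 and mitosis were not called. The list of cyclins and kinases of G1 and S phase also holds E2F factors, Pcna and pocket proteins. Of its 13 tested genes, 0, 3 and 2 were called higher at 25, 50 and 75 mg/kg/day. The shares of all genes called higher were 0.0414%, 0.746% and 2.65%. Ccnd1, which encodes cyclin D1, rose 2.32-fold at 75 mg/kg/day (limma adjusted p = 1.31e-06) and 1.72-fold at 50 mg/kg/day (limma adjusted p = 0.00144). Ccnd3, which encodes cyclin D3, rose 1.46-fold at 75 mg/kg/day (limma adjusted p = 0.0036). At 50 mg/kg/day the third was Rbl2, a pocket protein of the retinoblastoma family, at 1.38-fold (limma adjusted p = 0.0475).

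Of 19 tested genes of G2 and mitosis, 0 were called by limma at any dose. An unadjusted p under 0.05 was reached by 3, 3 and 0 of them at the rising doses, beside 1506, 2461 and 3334 of all 19315 genes. Ccna2 and Ccnb2 were among these at 25 and 50 mg/kg/day, and both were higher than control. Ccna2 was at 0.39 and 0.45 log2 units and Ccnb2 at 0.39 and 0.34. Differences above 0 were found for 12, 9 and 6 of the 19 genes at the rising doses. The median difference of the 19 was 0.07, -0.003 and -0.12 log2 units at the rising doses. Among them Bub1, a checkpoint kinase, had the largest difference at 75 mg/kg/day with -0.34 ± 0.20 (limma adjusted p = 0.393). At 75 mg/kg/day 3 of 5 mice had the Bub1 probe well above background, against 1 of 5 controls, so this difference is read mostly near background. Between 75 and 25 mg/kg/day all 19 differences were below 0, from -0.37 to -0.03, and limma called 0. An unadjusted p under 0.05 was reached there by 1 of the 19, beside 1324 of all 19315 genes.

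**Figure D4:**
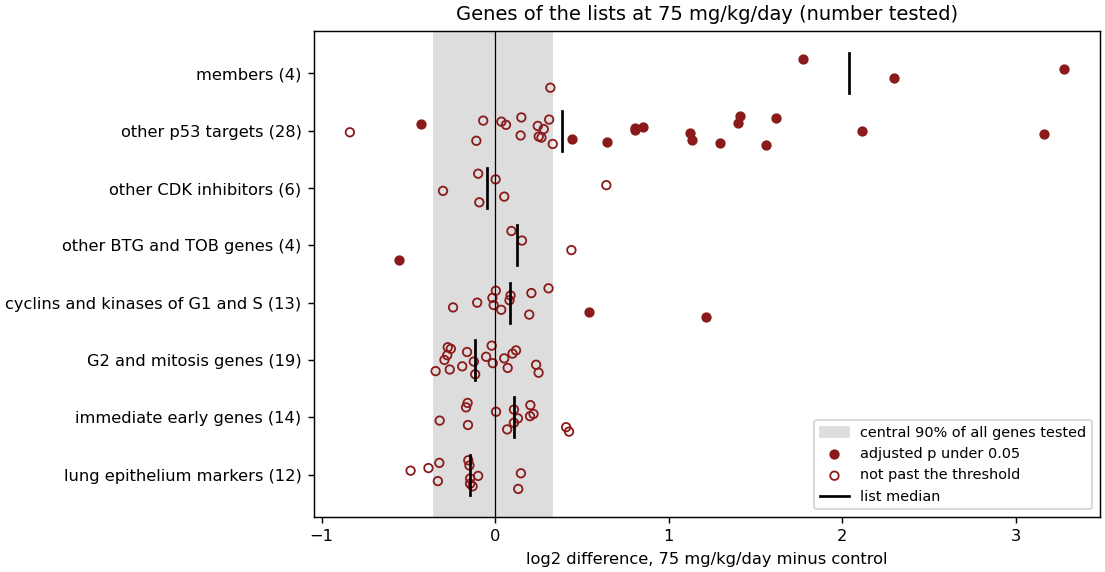
Log2 difference between 75 mg/kg/day and control (x axis) for each tested gene of the members and 7 other lists (rows, number tested in brackets), filled where the adjusted p is under 0.05, with the list median as a bar and the central 90% of all tested genes shaded. Of the members and the other p53 targets, 3 of 4 and 14 of 28 are filled to the right, while no gene of G2 and mitosis is filled.

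Cell markers show what else differed between the samples. All 12 lung epithelium markers were bright enough to be tested. By limma 0 of them were called at 75 mg/kg/day, and 0 had an unadjusted p under 0.05 (median -0.15). The largest difference among them was -0.49 for Scgb1a1, the club cell secretory protein (limma adjusted p = 0.35). Markers of skeletal muscle had medians of -1.71, -1.38 and -1.53 at the rising doses. Those of cardiac muscle were at -1.09, 0.02 and -1.34, and those of adipose tissue at -1.43, -0.53 and -1.11. By limma 0 of these markers were called at 75 mg/kg/day. Beside 3334 of all 19315 genes, 5 of 11, 2 of 9 and 1 of 6 had an unadjusted p under 0.05. The largest differences were -2.04 for Acta1, -2.98 for Sln and -2.57 for Cfd (limma adjusted p = 0.379, 0.183 and 0.353), with Sln well above background in 2 of 5 mice at 75 mg/kg/day. Control mouse 5 had a mean over the 11 skeletal muscle markers 4.00 log2 units above the control mean, beside -1.99 to -0.35 in all other mice. Without control mouse 5 the Cdkn1a, Ccng1 and Psrc1 calls at 75 mg/kg/day held. Of 9 B cell markers 3 were called lower at 75 mg/kg/day (Blnk, Cd79b and Tnfrsf13c), and of 11 T and NK cell markers 1 was called lower (Klrb1c). Over all genes tested, 1.51% were called lower and 2.65% higher at that dose. Of 8 macrophage markers 1 was called higher (Mertk), but the 8 went both ways. Their differences ran from -1.376 to 1.405 log2 units with a median of 0.074, and 5 were above 0. As a straight line over all mice, 2 macrophage markers were called higher and 1 lower. That line was called for 898 of all 19315 genes in either direction, 545 of them higher. The part of all these cell types in the member values was not tested.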

How the data were processed

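Lung RNA (Cy5) from 19 mice was hybridised against a universal mouse reference RNA (Cy3) on 2-colour Agilent arrays. Per the file headers, the deposited scanner files hold spot and background intensity values extracted with Feature Extraction 10.7.3.1. The authors also deposited a table of log2 ratios, with 1 column a sample; neither the labels nor the file headers state how it was normalized. Spot by spot, its columns correlated at r = 0.9953 to 0.9978 with log2 ratios computed here by loess without background subtraction. The medians of its columns were -0.0526 to -0.0333. The main values described below are background corrected, so this r is not a comparison with them. The table was used as an alternative.

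Median intensities were background corrected (normexp, offset 50) and loess normalized in limma 3.58.1 (R 4.3.3). Control spots had weight 0 in loess, spots marked as outliers (0.29%) were left out, and spots of a probe were averaged. A probe was kept if well above background in lung on at least 4 arrays, and a gene was read from its brightest probe. A mean per group was fitted over all 19 arrays, with Benjamini-Hochberg adjustment over 19315 genes or 24501 probes; 22 missing values were left missing. On simulated data at 75 mg/kg/day against control, 72%, 92%, 98% and 100% of genes changed by 0.5, 1, 2 and 3 log2 units were recovered. Of 192 calls over 19293 genes, 11 were false. The simulated noise was independent between arrays, with no slide effect, while the real arrays of a slide had an estimated correlation of 0.333.

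Symbols came from the RefSeq table (GRCm38.p6) through the array's accessions, for 23374 of 41174 probes. A transcript with no symbol was counted as a gene of its own in all counts, shares and ranks. The array held 16535 symbols, and 12324 of the 19315 genes tested had one. The named genes are the members, the 3 genes most like each, and the list genes called at 75 mg/kg/day or, where none was, the one with the largest difference. Perp, Ccng2, Btg3, Rbl2, Ccna2, Ccnb2, Fos and Junb were named after their values were seen. The members and lists were chosen with earlier results of these data known. Alternatives covered background, normalization, probe filter, slide and scan day, array weights and leaving out each mouse. The design text gives 5 mice per group; at 50 mg/kg/day 4 arrays were analysed here. Each mouse is a separate animal.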

Additional observations from a re-analysis of the deposited data

Results flagged for a closer look

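Among 40 sets of 4 or 5 mice checked for a value far from the rest, 2 held one, and about 1 in 20 is what chance gives. Cdkn1a in mouse 14 at 50 mg/kg/day was low, at a log2 ratio of 0.863, where the next mouse of that group was at 1.35. Btg2 on its brightest probe in mouse 12 at 50 mg/kg/day was high, at 0.863, where the next was at 0.323.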

How the results depend on the processing

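No called member value changed sign in any setting run, and the calls at 75 mg/kg/day of Cdkn1a, Ccng1 and Psrc1 held in all 36 settings. For Cdkn1a at 25 mg/kg/day the call was lost with median centring in place of loess (1.56, limma adjusted p = 0.83), with scaling between arrays, an alternative chosen after seeing the data (1.45, 0.0519), without the 4 arrays marked by the quality report (1.24, 0.142), with array weights (1.32, 0.0659) and in the lung channel alone (1.30, 0.0666); leaving out each mouse gave 1.22 to 1.5002. In each of these the number of members higher at 25 mg/kg/day was 0, with the slide as a random block it was 2, and leaving out each mouse gave 0 to 1. Slide as a random block brought Ccng1 at 25 mg/kg/day (0.88, 0.048) and Psrc1 at 50 mg/kg/day (0.76, 0.0343) past the threshold. Psrc1 at 50 mg/kg/day also passed with an offset of 10 (1.04, 0.0499), with Feature Extraction's processed signals (1.72, 0.00455) and without mouse 19 (0.75, 0.0493), with a range of 0.65 to 0.88 over mice left out. Median centring took Ccng1 at 50 mg/kg/day to 1.97 (0.0505), the number of members higher there to 1, and Btg2 at 75 mg/kg/day to 0.93 (0.0394), while it moved the median of all genes at 75 mg/kg/day to 0.351. Btg2 at 75 mg/kg/day passed without mouse 12 (0.32, 0.0455), with a range of 0.26 to 0.39. Gtse1 at 75 mg/kg/day was at 0.16 in the authors' deposited table (exact permutation p = 0.0476) and at 0.27 without control mouse 2 (exact permutation p = 0.00794), with a range of 0.07 to 0.27 over mice left out. Without the 4 arrays marked by the quality report it was at -0.0483, with no call. The cause of these shifts was not tested. No paired analysis was possible because the mouse numbers differ between all groups, so no number is shared; the blocked fits above use the slide.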
